A study of Mus musculus with 14 samples.

Results

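Jejunal CD166 cells were compared with jejunal crypt cells over all genes of the expected count tables, using 2 CD166 libraries and 3 crypt libraries of the 14 in the series. Both groups came from C57Bl6 mice that the labels give as male and 6 to 12 weeks old, with jejunum taken 5 to 8 cm from the pylorus. Both came from tissue digested mechanically and with enzymes. The CD166 group holds cells sorted as positive for CD44 and CD166 (encoded by Alcam) and low in CD24. The labels call the crypt group stem cells too but name no marker for it, and its libraries held villus, lymphocyte and blood transcripts. The labels also carry a growth protocol in Matrigel for every library, while the design text has sorted cells collected straight into lysis buffer. Whether libraries of a group came from separate mice, and whether mice were pooled, is not given in the sources used here, so p-values measure the spread between these libraries. Each file listed 36401 genes, and 14076 passed the filter on low counts and were tested.

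The crypts of the small intestine hold crypt base columnar stem cells, which express Lgr5, and Paneth cells, which secrete lysozyme and defensins. Their progeny become absorptive enterocytes, mucus-secreting goblet cells, chemosensory tuft cells and hormone-secreting enteroendocrine cells. CD44 is a Wnt target of the crypt base and CD166 is an adhesion molecule found there on stem cells and Paneth cells. Sorting by both has been used to collect crypt base cells without a reporter gene.

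Total expected counts were 11279412, 6295828 and 20380369 in crypt libraries 1 to 3 and 14325049 and 13646762 in CD166 libraries 1 and 2. Values are given per library in that order as CPM, counts relative to library size after scaling by trimmed means of M values, which compare a gene between libraries and not with another gene. Crypt 2 stood apart: its Pearson correlation with the other crypt libraries was 0.828 and 0.849 over 9869 genes of log2(CPM + 1), against 0.97 between crypt 1 and crypt 3. With CD166 libraries 1 and 2, crypt 1 correlated at 0.855 and 0.852, above its value with crypt 2. Crypt 3 correlated with them at 0.812 and 0.821, below its value with crypt 2. Xist, which is transcribed from an inactive X chromosome, stood at 2.98, 1278 and 2.64 CPM in crypt and at 190 and 699 CPM in CD166. The Y-linked gene Eif2s3y stood at 54.4, 0 and 57.2 CPM in crypt and at 7.57 and 25.6 CPM in CD166. These values go against the male label for crypt 2, and both CD166 libraries held transcripts of both kinds. Counts are therefore also given without crypt 2. Both crypt libraries of that fit were low in Xist and both CD166 libraries were high. Leaving out crypt 2 thus does not remove this difference, which cannot be told apart there from that of the sort. In crypt 1 the duodenal and jejunal factor Pdx1 was at 0.351 CPM, against 23.0 and 12.5 CPM in the other crypt libraries.

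Hormone and granule genes were higher in CD166 cells, and genes of absorption, lymphocytes and blood were lower. By edgeR's quasi-likelihood test with Benjamini-Hochberg adjustment over all tested genes, 893 genes (6.34%) were called at an adjusted p under 0.05, of which 362 (2.57%) were higher and 531 (3.77%) lower in CD166 cells. In each of the 893 the groups did not overlap, and 314 were at least 4-fold higher and 360 at least 4-fold lower. Over all tested genes, both CD166 libraries lay above the 3 crypt libraries in 23.3% and below them in 23.2%. Of the 14076 genes, 3348 had an unadjusted p under 0.05 in edgeR, 1938 of them lower in CD166 cells. DESeq2 called 2368 of the 14076, 791 higher and 1577 lower. Unadjusted and DESeq2 counts given for lists below are to be read beside these. Without crypt 2, 1558 genes (11.3% of 13781 tested) were higher and 1864 (13.5%) lower, and 881 of the 893 were among them. With crypt 3, CD166 1 or CD166 2 left out, edgeR called no gene, although 2638, 1627 and 1720 genes had an unadjusted p under 0.05. DESeq2 then called 1628, 1000 and 992, and limma-voom 172, 0 and 0. The sign of 889 of the 893 log2 differences was the same in each of the 5 fits that left out 1 library.

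**Figure D1:**
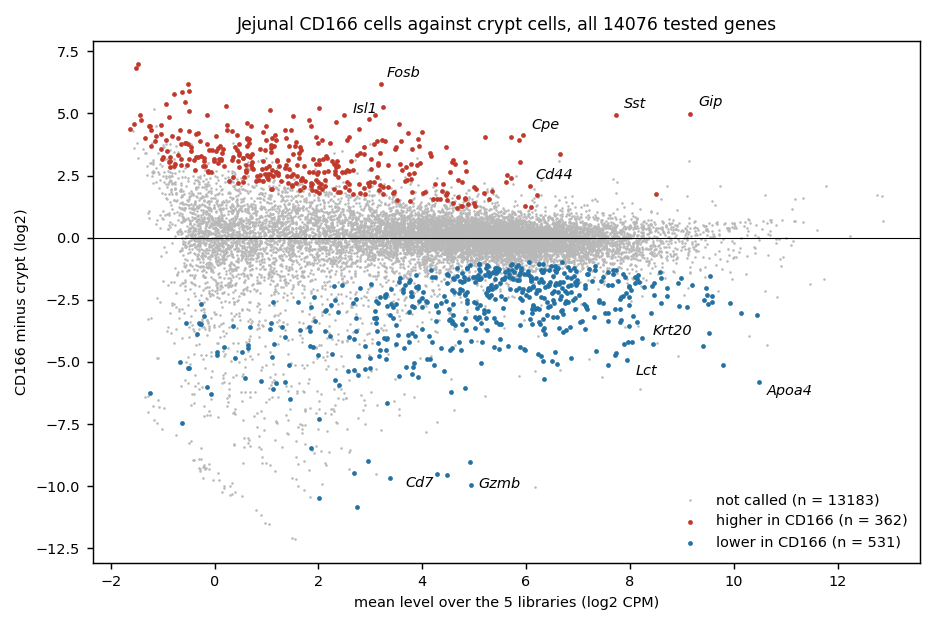
Each point is 1 of the 14076 tested genes, with its mean level over the 5 libraries (log2 CPM, x axis) and its difference CD166 minus crypt (log2, y axis); colours mark called genes. The 362 higher genes reach high levels at Gip and Sst, and the lowest blue points include the lymphocyte genes Gzmb and Cd7.

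Enteroendocrine cells store peptide hormones in dense granules and release them after nutrient signals. Of 31 tested genes of the hormone and granule list, 21 rose, none fell and 10 were not called, with a median log2 difference of 3.03, against -0.01 over all tested genes. Both CD166 libraries lay above every crypt library for 27 of the 31. In bulk RNA a larger share of cells of a type and more RNA per cell cannot be told apart. Gip, the incretin hormone of K cells, was at 132, 114 and 198 CPM in crypt and 3268 and 6172 CPM in CD166. The CD166 libraries were thus far above crypt, with a log2 difference of 4.99 ± 0.50 (SE, edgeR adjusted p = 0.0122). Sst, the inhibitory hormone somatostatin of D cells, was at 49.6, 41.0 and 74.7 CPM in crypt and 1852 and 1515 CPM in CD166. The groups were again far apart, with a log2 difference of 4.93 ± 0.40 (edgeR adjusted p = 0.0117).

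The other hormones did not all move together. Sct (secretin, which stimulates bicarbonate secretion) rose by 3.03 ± 0.23 on the log2 scale, from 23.2, 29.1 and 24.2 CPM to 184 and 233 CPM. Ghrl, which encodes ghrelin, rose by 2.51 ± 0.38, from 18.5, 19.5 and 38.9 CPM to 136 and 157 CPM. Tac1, the precursor of substance P, rose by 2.25 ± 0.36, from 17.8, 11.4 and 15.1 CPM to 48.3 and 93.5 CPM. Tph1, the rate-limiting enzyme of serotonin synthesis outside the brain, rose by 2.33 ± 0.24, from 11.5, 13.8 and 15.2 CPM to 59.5 and 76.6 CPM. The following hormone genes fell outside the naming rule and were chosen after their values were seen. Cck, which encodes cholecystokinin, was at 26.9, 27.7 and 77.9 CPM in crypt and at 189 and 161 CPM in CD166 (edgeR adjusted p = 0.0820). Gcg, the precursor of the L cell hormone GLP-1, overlapped between the groups, at 57.2, 12.3 and 59.9 CPM in crypt and 48.2 and 48.5 CPM in CD166. Pyy, another L cell hormone, also overlapped and stayed under 2 CPM in each library. Nts (neurotensin) was at 33.3, 13.3 and 11.4 CPM in crypt and at 0.0653 and 2.19 CPM in CD166, so that both CD166 libraries were lower (edgeR adjusted p = 0.119).

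Granule genes moved with the hormones. Cpe, the carboxypeptidase that trims prohormones, was at 25.1, 10.9 and 25.1 CPM in crypt and at 390 and 334 CPM in CD166. Its log2 difference was 4.14 ± 0.42 (edgeR adjusted p = 0.0122). Pcsk1, the convertase that cleaves prohormones, rose by 3.03 ± 0.42, and the calcium sensor Scgn rose by 3.97 ± 0.40. The granins Scg3 and Scg5 each rose by 3.92, with SEs of 0.41 and 0.49. Scg2, also a granin, rose by 3.03 ± 0.47, from 11.1, 5.08 and 16.3 CPM to 81.3 and 98.7 CPM. The granin genes Chga and Chgb did not pass the test: Chga was at 149, 39.3 and 165 CPM in crypt and 574 and 649 CPM in CD166 (edgeR adjusted p = 0.0777). Chgb was at 364, 77.5 and 380 CPM in crypt and 2404 and 2198 CPM in CD166 (edgeR adjusted p = 0.0615). For both, the CD166 libraries lay above every crypt library and crypt 2 was the lowest. Without crypt 2, 26 of the 31 genes were called higher and 1 lower, Ddc, which encodes the decarboxylase of serotonin synthesis.

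The 15 called genes with the largest rise at a mean level of at least 3 (log2 CPM) also held Rbp4, Fabp5, Abcc8, Accn5, Ptprn2 and Gpr112. Rbp4, which encodes the carrier of retinol, was at 3.95, 4.74 and 5.89 CPM in crypt and 89.2 and 97.7 CPM in CD166. Fabp5, a fatty acid binding protein, was at 12.2, 11.9 and 11.7 CPM in crypt and 180 and 214 CPM in CD166. Both genes had narrow groups that were far apart, with log2 differences of 4.26 ± 0.26 and 4.04 ± 0.21 (edgeR adjusted p = 0.00823 and 0.00545). Abcc8, the sulfonylurea receptor subunit of a potassium channel, rose by 4.92 ± 0.47, and the acid-sensing channel family member Accn5 rose by 5.25 ± 0.28. Ptprn2, a granule membrane protein, rose by 3.92 ± 0.69, and the orphan adhesion receptor Gpr112 rose by 3.91 ± 0.37.

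The 250 bases before the annotated start are shown for 3 of these genes, to set the somatostatin and secretogranin starts, which share a motif, beside the Gip start, which lacks it. They are RefSeq sequences of build GRCm38.p6, written 5′ to 3′ on the gene's strand; the counts were made on mm9. Capitals mark TGACGTCA, the palindromic cyclic AMP response element, and the GATA factor motif, whose letters on one of the strands are AGATAA. Sst lies on chr16:23890845-23891094 (minus strand), Scg2 on chr1:79440027-79440276 (minus strand) and Gip on chr11:96024295-96024544 (plus strand).
Sst: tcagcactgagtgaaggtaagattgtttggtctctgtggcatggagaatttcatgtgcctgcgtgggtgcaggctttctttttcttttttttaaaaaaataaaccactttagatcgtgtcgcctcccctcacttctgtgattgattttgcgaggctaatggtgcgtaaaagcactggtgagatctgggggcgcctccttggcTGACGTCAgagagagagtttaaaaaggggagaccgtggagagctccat
Scg2: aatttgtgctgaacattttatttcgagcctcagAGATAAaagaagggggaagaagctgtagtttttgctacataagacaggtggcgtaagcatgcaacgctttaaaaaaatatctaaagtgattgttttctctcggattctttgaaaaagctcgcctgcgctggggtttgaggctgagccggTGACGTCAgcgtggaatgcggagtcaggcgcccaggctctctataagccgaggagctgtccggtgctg
Gip: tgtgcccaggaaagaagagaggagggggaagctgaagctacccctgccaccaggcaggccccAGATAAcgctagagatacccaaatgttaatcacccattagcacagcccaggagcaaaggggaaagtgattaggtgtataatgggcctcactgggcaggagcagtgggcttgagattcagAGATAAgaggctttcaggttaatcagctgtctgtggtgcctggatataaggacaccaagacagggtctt
TGACGTCA begins 48 bases before the start of Sst and 68 before that of Scg2, and the GATA-type motif begins 69 and 188 bases before that of Gip and 217 before that of Scg2. Of 30 such windows of 24 hormone and granule genes, 4 held TGACGTCA (13.3%: Chgb, Pcsk1, Scg2 and Sst), against 2.55% of 12331 windows of tested genes and 1.55% of all 32851 windows. The GATA-type motif was in 7 of the 30 (23.3%), against 6.35% of the windows of tested genes and 9.99% of all windows. These are matches of letters and not shown to be bound. No test was made of these shares.

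Transcription factors of the enteroendocrine lineage rose as well. Of 20 tested, 10 rose and none fell, with a median log2 difference of 2.05, and both CD166 libraries lay above every crypt library for 18. Isl1, a LIM homeodomain factor of hormone cells, was at 3.34, 3.16 and 3.20 CPM in crypt and at 77.3 and 76.7 CPM in CD166. The log2 difference was 4.57 ± 0.22 (edgeR adjusted p = 0.00545), with little spread in either group. Rfx6, needed for hormone cell differentiation, was at 6.06, 2.46 and 3.93 CPM in crypt and 64.1 and 94.1 CPM in CD166 (log2 difference 4.23 ± 0.42). Pax6 rose by 4.05 ± 0.29, Insm1 by 3.40 ± 0.50, Myt1 by 3.42 ± 0.32, St18 by 3.34 ± 0.29, Nkx2-2 by 3.02 ± 0.41 and Neurod1 by 2.83 ± 0.30. Etv1 also rose, by 1.96 ± 0.41. Neurog3, the transient factor that starts the lineage, did not pass: it was at 12.6, 1.58 and 7.60 CPM in crypt and 19.3 and 15.3 CPM in CD166 (edgeR adjusted p = 0.378). Without crypt 2, 17 of 19 tested factors were called higher.

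**Figure D2:**
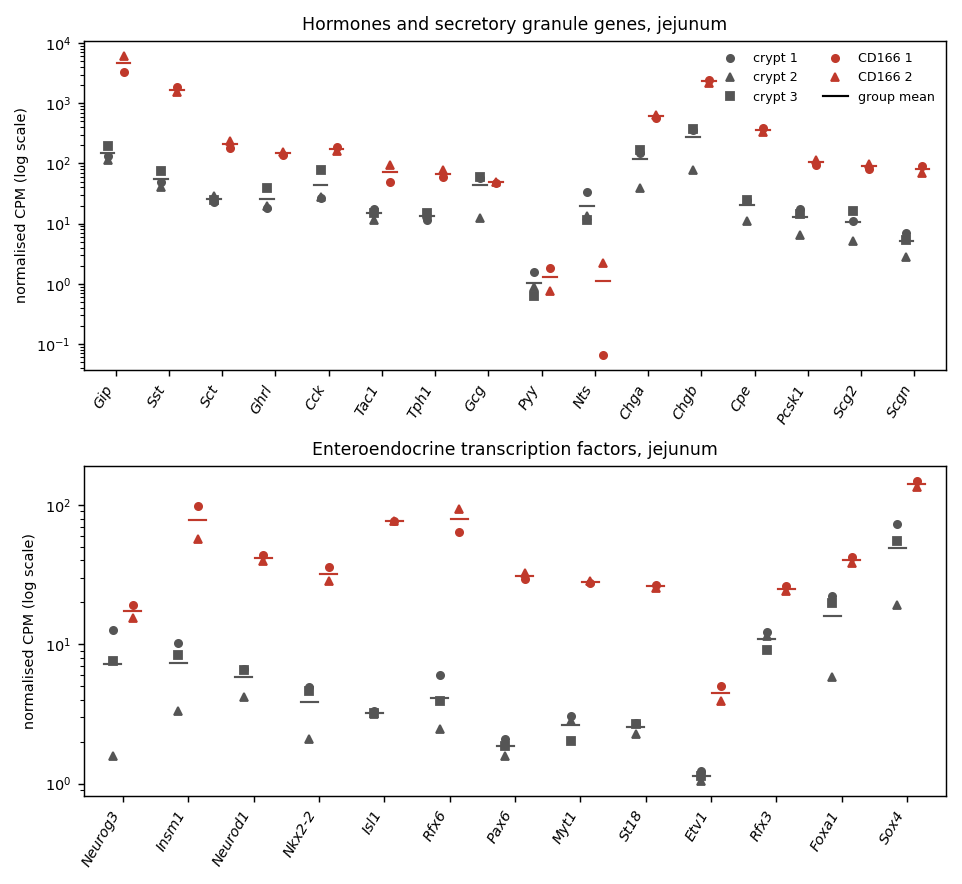
Normalised CPM (log scale) of each gene in the 3 crypt libraries (grey) and 2 CD166 libraries (red), with group means as bars: hormones and granule genes above, transcription factors below. Gip and Sst rose about as far as Isl1 and Rfx6, whereas Gcg and Pyy overlapped and Nts was lower in both CD166 libraries.

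Stem cell genes were higher in CD166 cells, mostly without passing the test. Alcam, which encodes CD166, did not separate the groups: it was at 48.9, 28.8 and 45.9 CPM in crypt and 47.6 and 36.9 CPM in CD166 (log2 difference 0.04 ± 0.30). Cd44 rose, from 43.4, 36.3 and 34.2 CPM to 175 and 143 CPM, with a log2 difference of 2.07 ± 0.22 (edgeR adjusted p = 0.0127). Cd24a, whose protein was gated as low, was at 333, 134 and 276 CPM in crypt and 1143 and 953 CPM in CD166, higher in both CD166 libraries (edgeR adjusted p = 0.0519). The mRNA levels of the 3 sort antigens thus did not follow the gate alike.

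Of 28 tested genes of crypt base columnar stem cells, 3 rose, none fell and 25 were not called. Both CD166 libraries lay above every crypt library for 27 of them, and the median log2 difference was 1.33. Lgr5, the receptor for R-spondins, was at 33.7, 12.1 and 25.9 CPM in crypt and 80.1 and 90.4 CPM in CD166 (log2 difference 1.83 ± 0.42, edgeR adjusted p = 0.0641). Olfm4, a secreted protein abundant in these cells, was at 3487, 1056 and 1817 CPM in crypt and 8376 and 9331 CPM in CD166 (log2 difference 2.06 ± 0.58, edgeR adjusted p = 0.101). Ascl2, a transcription factor of stem cells, was at 20.7, 4.03 and 30.4 CPM in crypt and 44.8 and 41.9 CPM in CD166. In these 3 genes the groups did not overlap and crypt 2 was the lowest. The 3 members that rose were Fstl1 (2.44 ± 0.34), a secreted BMP and activin antagonist family member, Gkn3 (1.55 ± 0.32), a gastrokine, and Soat1 (1.24 ± 0.26), which esterifies cholesterol. Gkn3 was at 12.8, 20.9 and 22.8 CPM in crypt and 47.4 and 63.1 CPM in CD166. Without crypt 2, 24 of the 28 were called higher, with a median of 1.05. Without crypt 1, 1 was called higher, and Gkn3 and Soat1 lost their calls. Of 13 tested genes of reserve and regenerative stem cells, none was called by edgeR (median 0.45), 4 had an unadjusted p under 0.05 and DESeq2 called 3. Without crypt 2, 6 of these were called higher and none lower.

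Some signalling genes were called with all 5 libraries, and more without crypt 2. Calls over all tested genes grew too, from 6.34% in either direction to 11.3% higher and 13.5% lower without crypt 2. Among 22 Wnt targets, Cd44 and the Wnt inhibitor Wif1 rose and none fell, and Lgr5 and Ascl2 are on that list too. Wif1 was at 0.351, 0.175 and 0.362 CPM in crypt and 2.42 and 2.33 CPM in CD166. Among 18 Notch pathway genes, the receptor Notch1 and the ligand Dll4 rose. Notch1 went from 46.6, 41.7 and 45.3 CPM to 112 and 102 CPM, a log2 difference of 1.26 ± 0.19 (edgeR adjusted p = 0.0234), and Dll4 rose by 1.80 ± 0.34. The ligand Dll1 and the target Hes1 did not pass, with log2 differences of 0.70 ± 0.28 and 0.68 ± 0.31. Among 18 EGF receptor family genes, the ERK-responsive factors Etv5 and Etv4 rose, by 1.76 ± 0.32 and 2.80 ± 0.54. Among 17 BMP and TGF-beta genes, the pseudoreceptor Bambi rose by 2.55 ± 0.45. Among 12 Eph receptors and ephrins, Epha7 rose, and Epha1 and the ligand Efnb2 fell by 1.40 and 1.38 on the log2 scale. All 3 Eph calls were lost without crypt 1 and with no filter on low counts, and both falls with scaling by library totals. Without crypt 2, 12 of 20 Wnt targets rose and none fell, 4 Notch genes rose and 1 fell, 6 EGF receptor family genes rose and 1 fell, 2 BMP and TGF-beta genes rose and 3 fell, and 5 Eph genes rose and 2 fell. Without crypt 1, 1 Wnt target rose, 1 Notch gene rose and 1 fell, and no EGF receptor family gene was called by edgeR.

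Cell cycle genes did not pass the test. None of 28 DNA replication genes and none of 27 mitosis genes was called by edgeR, with medians of 0.76 and 0.59, and 27 of each list were above 0. At an unadjusted p under 0.05 there were 5 and 0, and DESeq2 called 1 and 0. Mki67, the proliferation antigen, was at 331, 80.0 and 283 CPM in crypt, lowest in crypt 2, and at 506 and 349 CPM in CD166. Without crypt 2, 6 replication genes and no mitosis gene were called higher, and the medians were 0.52 and 0.21. Among 18 tested cell cycle inhibitors and p53 targets, Cdkn1c, the inhibitor p57, rose and Cdkn2b, the inhibitor p15, fell. Cdkn1c went from 5.36, 6.66 and 8.37 CPM to 70.0 and 38.6 CPM (log2 difference 2.99 ± 0.36, edgeR adjusted p = 0.0146). Cdkn2b went from 94.1, 54.0 and 80.4 CPM to 15.6 and 15.4 CPM, a log2 difference of -2.30 ± 0.31 (edgeR adjusted p = 0.0177).

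Most Paneth cell genes were higher in CD166 libraries, but they varied among crypt libraries. None of 20 tested was called by edgeR, at a median of 1.46, while 5 had an unadjusted p under 0.05 and DESeq2 called 6. Over all 14076 tested genes these counts were 3348 and 2368. Both CD166 libraries lay above every crypt library for 12, and 4 of the 20 had a log2 difference below 0. Lyz1, the lysozyme of Paneth cells, was at 8333, 3700 and 2136 CPM in crypt and 12130 and 19110 CPM in CD166 (log2 difference 1.73 ± 0.68, edgeR adjusted p = 0.196). Mmp7, the protease that activates defensins, was at 194, 159 and 39.7 CPM in crypt and 534 and 718 CPM in CD166 (edgeR adjusted p = 0.106). The summed level of the list ran from 5849 to 23980 CPM in crypt and was 32420 and 50640 CPM in CD166, and crypt 3 was the lowest. Defensin values are uncertain, since reads may be shared among near-identical copies. Without crypt 2, 1 Paneth gene was called higher, the Wnt ligand gene Wnt3. Without crypt 1, whose summed level was the highest of the crypt libraries, 7 of 19 were called higher, with a median of 2.26. Over all genes of that fit, 234 of 13926 were called higher. Leaving out the library with the highest sum lowers the crypt level by itself, so these calls are no separate support.

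Among 18 goblet cell genes 1 rose and 1 fell. Zg16, a secreted lectin of mucus, went from 1359, 2117 and 1327 CPM to 212 and 318 CPM (log2 difference -2.59 ± 0.43, edgeR adjusted p = 0.0289). Retnlb, a secreted goblet cell protein, rose at low levels, from 0.527, 0.351 and 0.155 CPM to 3.92 and 4.11 CPM. The main mucin Muc2 overlapped, at 1194, 208 and 814 CPM in crypt and 714 and 403 CPM in CD166. Among 21 tuft cell genes, the taste-type cation channel Trpm5 and the leukotriene synthesis protein Alox5ap rose. Trpm5 went from 31.6, 14.4 and 35.9 CPM to 122 and 141 CPM (log2 difference 2.26 ± 0.40), and Alox5ap rose by 2.15 ± 0.28. The tuft marker Dclk1 was at 41.1, 11.6 and 43.4 CPM in crypt and 160 and 128 CPM in CD166 (edgeR adjusted p = 0.0771). Of the 21 tuft genes 20 were above 0, with a median of 1.13, and 16 were called higher without crypt 2 and 1 of 20 without crypt 1. Among 12 tested genes of defence lectins and oxidases, Reg4, a lectin of secretory cells, rose by 1.75 ± 0.37. Reg3a, an antimicrobial lectin, went from 329, 367 and 356 CPM to 7.90 and 20.7 CPM, although reads may be shared among Reg genes.

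**Figure D3:**
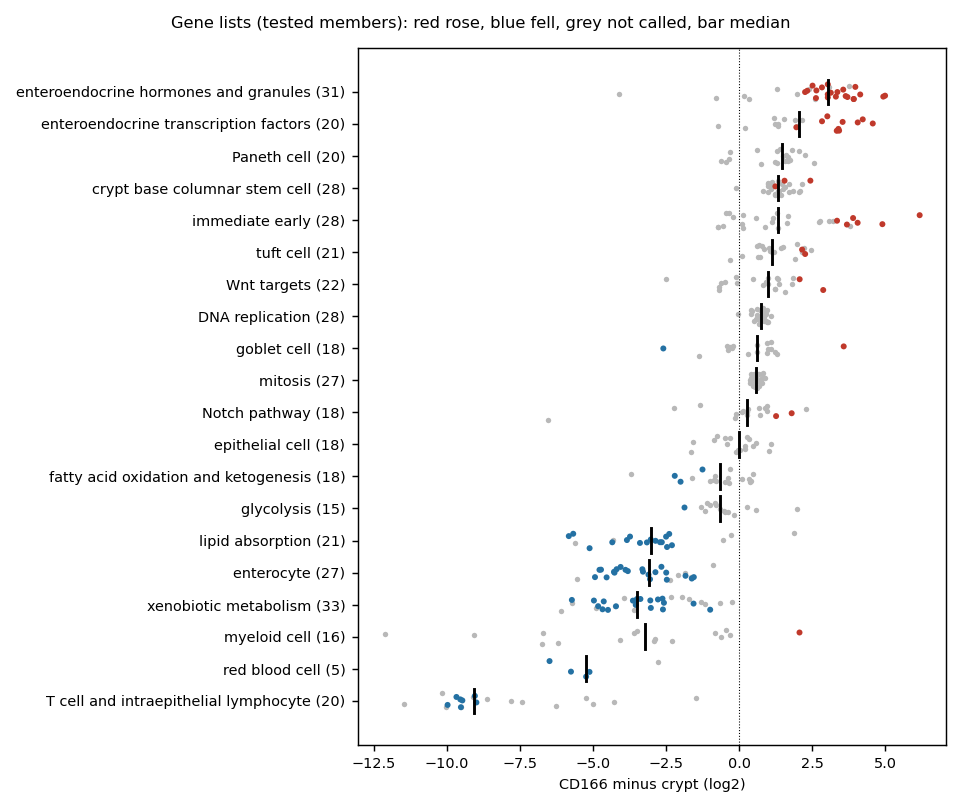
Each point is the log2 difference CD166 minus crypt of a tested gene of the list named at left (number tested in brackets); red genes rose, blue fell, grey were not called, and the bar is the median. Medians run from 3.03 for hormones and granules to -9.06 for lymphocyte genes, and the dotted line is the median of all tested genes.

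Genes of mature enterocytes fell. Of 27 tested, 21 fell and none rose, the median log2 difference was -3.10, and both CD166 libraries lay below every crypt library for 26. Without crypt 2, 24 fell. Sis, which encodes sucrase-isomaltase, went from 2238, 3240 and 2420 CPM to 287 and 349 CPM (log2 difference -3.05 ± 0.41, edgeR adjusted p = 0.0171). Lct, which encodes lactase, went from 1063, 856 and 1133 CPM to 17.9 and 48.8 CPM (log2 difference -4.93 ± 0.60, edgeR adjusted p = 0.0148). The CD166 levels were low for both but not 0. Krt20, a keratin of shed and villus cells, fell by 4.05 on the log2 scale, the glucose carrier Slc5a1 by 2.66, the peptidase Anpep by 3.10 and the alkaline phosphatase Alpi by 4.26. Akp3, the other alkaline phosphatase of the list, was at 5.27, 1806 and 351 CPM in crypt and 9.20 and 21.4 CPM in CD166, so that crypt 1 lay below both CD166 libraries. The list's 27 genes together took 21390, 28750 and 26050 CPM in crypt and 3852 and 3955 CPM in CD166.

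Lct is shown for the falling side, since it and Gip carry the GATA-type motif and differ in opposite directions. Its 250 bases before the start lie on chr1:128328319-128328568 (minus strand, GRCm38.p6), marked as above.
Lct: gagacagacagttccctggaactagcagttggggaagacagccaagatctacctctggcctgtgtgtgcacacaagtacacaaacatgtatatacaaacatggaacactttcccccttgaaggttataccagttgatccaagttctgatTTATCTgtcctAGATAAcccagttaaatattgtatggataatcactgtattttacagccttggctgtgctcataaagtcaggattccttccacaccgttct
The motif begins 90 and 101 bases before the start of Lct. It was in 6 of 26 enterocyte windows (23.1%) and 9.82% of 489 windows of genes called lower, against 8.84% of 328 windows of genes called higher. TGACGTCA was in none of the 26 enterocyte windows and in 3.96% and 0.818% of the windows of genes called higher and lower.

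Fat absorption and detoxification genes fell with the enterocyte genes. Of 21 tested genes of lipid absorption 16 fell and none rose, with a median of -3.02, and 19 fell without crypt 2, when Scarb1, a lipoprotein receptor, was called higher. Apoa4, an apolipoprotein of chylomicrons, went from 3536, 14210 and 7462 CPM to 75.3 and 221 CPM (log2 difference -5.83 ± 1.00, edgeR adjusted p = 0.0308). Apoa1 went from 3232, 4701 and 3554 CPM to 68.0 and 153 CPM, a log2 difference of -5.12 ± 0.61. Mttp, which loads lipid onto apolipoprotein B, fell by 2.65, Dgat2, which makes triglyceride, by 3.02 and Fabp1, which carries fatty acids, by 4.34. Fabp2, with a crypt 2 level of 15890 CPM against 2083 and 3060 CPM in the other crypt libraries, did not pass (edgeR adjusted p = 0.0966). Of 33 tested genes of xenobiotic metabolism 20 fell and none rose, with a median of -3.49. Cyp4f14 went from 668, 698 and 795 CPM to 57.7 and 80.8 CPM, and the retinaldehyde dehydrogenase Aldh1a1 fell by 4.21. Cyp3a11 went from 539, 4168 and 1671 CPM to 11.2 and 51.7 CPM without passing (edgeR adjusted p = 0.0545). Cyp and Ces values share the doubt about near-identical copies.

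Further genes were among the 15 called with the largest fall at a mean level of at least 3. Pdzk1, a brush border scaffold of transporters, went from 144, 127 and 156 CPM to 0.588 and 3.29 CPM. Cubn, the receptor for the intrinsic factor and vitamin B12 complex, went from 137, 79.1 and 87.2 CPM to 1.04 and 3.84 CPM. Enpp7, an alkaline sphingomyelinase, Slc30a10, a manganese exporter, and the NAD-metabolising surface enzyme Bst1 fell by 6.63, 5.22 and 6.04 on the log2 scale. Slc7a15, Gdpd2, 2010002M12Rik and Apoc3 fell by 5.57, 5.49, 5.62 and 5.68. Among 18 genes of fatty acid oxidation, 3 fell and none rose, among them Ehhadh of the peroxisome by 1.25 and the coactivator Ppargc1a by 2.20. Among 15 glycolysis genes Pfkp fell by 1.89, and among 15 genes of regional identity Hnf4g fell by 1.78, a call lost without crypt 1. Without crypt 2, 8 fatty acid oxidation genes fell, 7 glycolysis genes fell and 1 rose, and 3 genes of regional identity fell and 1 rose. Gata4, which marks proximal intestine, overlapped between the groups, at 219, 86.1 and 307 CPM in crypt and 213 and 163 CPM in CD166.

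Lymphocyte transcripts were far lower in CD166 libraries and varied among crypt libraries. The summed level of 21 lymphocyte genes in the files was 1195, 14220 and 942 CPM in crypt and 12.3 and 11.7 CPM in CD166. Of 20 tested, 7 fell and none rose (median -9.06, or -9.01 with Xcl1, listed at 0 in both CD166 libraries, placed at a floor of 3 counts over the group). Gzmb, the granzyme of cytotoxic cells, went from 182, 1695 and 156 CPM to 0.979 and 0.343 CPM (log2 difference -9.97 ± 1.82, edgeR adjusted p = 0.0368). Cd8a, a coreceptor of T cells, went from 83.7, 1049 and 67.4 CPM to 0.457 and 0.617 CPM. Ccl5, Cd7 and Il2rb followed the same order, with crypt 2 highest and both CD166 libraries under 1 CPM. Ptprc, which encodes the leukocyte antigen CD45, was at 55.5, 701 and 32.2 CPM in crypt and 2.29 and 0.754 CPM in CD166 (edgeR adjusted p = 0.0817). Without crypt 2, 17 of 18 tested lymphocyte genes fell. With no filter on low counts, none of the 20 was called by edgeR, at a median of -8.96, while limma-voom with the filter called 3 and DESeq2 18. With the filter, 19 had an unadjusted p under 0.05.

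Red blood cell genes also fell, and few genes of the other cell types were called. Of 5 red blood cell genes 4 fell. The haemoglobin gene Hbb-b1 went from 19.4, 45.4 and 34.9 CPM to 0.653 and 1.10 CPM. The 20 myeloid genes in the files summed to 142, 861 and 90.3 CPM in crypt and 92.8 and 77.7 CPM in CD166, so that crypt 2 stood apart there too. Of 16 tested, 15 lay below 0 and 8 had an unadjusted p under 0.05. DESeq2 called 7 lower and 1 higher, and edgeR without crypt 2 called 5 lower and 1 higher of 11. In edgeR with all 5 libraries Cd14, a lipopolysaccharide coreceptor, was the 1 called: it rose, from 7.38, 4.56 and 4.08 CPM to 21.8 and 22.5 CPM, and the list's median was -3.21 (-3.21 with Mcpt1, listed at 0 in both CD166 libraries, at that floor). None of 13 stromal and none of 12 endothelial genes was called by edgeR, with 1 and 2 at an unadjusted p under 0.05, while DESeq2 called 1 and 2. The collagen gene Col1a1 stood at 1.49, 4.21 and 1.24 CPM in crypt and 1.11 and 0.685 CPM in CD166. The epithelial genes Epcam and Krt8 overlapped between the groups, and none of 18 epithelial genes was called by edgeR, with 3 at an unadjusted p under 0.05 and 4 called by DESeq2. Epcam was at 1699, 1003 and 1585 CPM in crypt and 1559 and 1321 CPM in CD166. The part of villus, lymphocyte and blood transcripts in the differences of other genes was not tested.

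**Figure D4:**
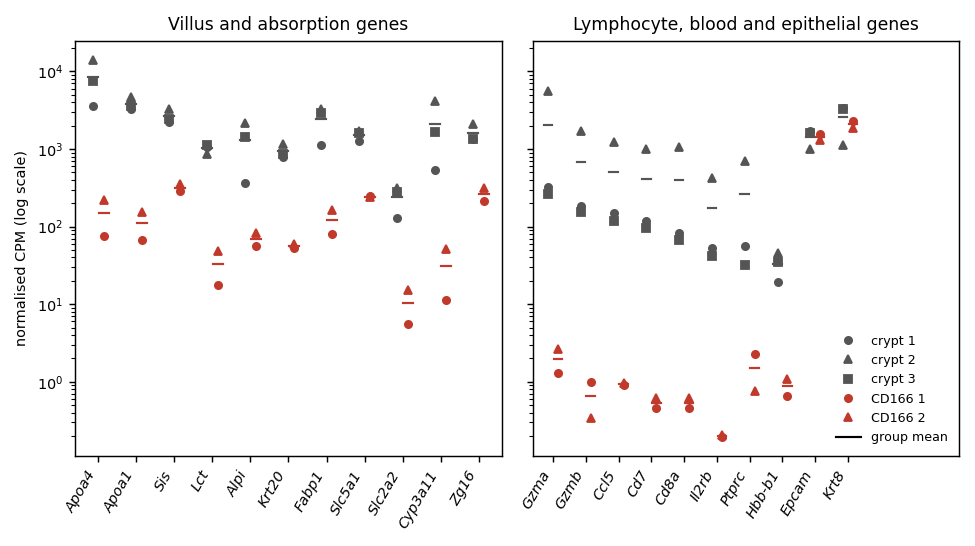
Normalised CPM (log scale) per library of villus and absorption genes (left) and lymphocyte, blood and epithelial genes (right); grey is crypt, red is CD166, bars are group means. Crypt 2 (triangles) is the highest crypt library for each lymphocyte gene, both CD166 libraries are under 3 CPM there, and Epcam overlaps.

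Immediate early genes, which are transcribed within minutes of a stimulus and also during tissue dissociation, rose in part. Of 28 tested, 6 rose and none fell, and the median was 1.32. Fosb, a component of the AP-1 factor, went from 1.84, 1.58 and 1.81 CPM to 49.1 and 206 CPM, the largest log2 rise among called genes with a mean level of at least 3 (6.17 ± 0.67, edgeR adjusted p = 0.0129). Egr1, a zinc finger factor, went from 11.7, 39.5 and 9.87 CPM to 168 and 496 CPM (4.05 ± 0.78, edgeR adjusted p = 0.0412). Jun rose by 3.35 ± 0.58, the phosphatase gene Dusp1 by 3.90 ± 0.68, Arc by 4.90 ± 0.42 and Klf2 by 3.69 ± 0.61. Fos was at 21.9, 84.7 and 40.2 CPM in crypt and 209 and 612 CPM in CD166 (edgeR adjusted p = 0.0617). CD166 2 was above CD166 1 in each of these 7 genes. The summed level of the list was 932, 1384 and 956 CPM in crypt and 1694 and 4167 CPM in CD166. Without crypt 2, 11 of 27 rose and 1, the AP-1 member Fosl2, fell. Without crypt 1, 3 of 28 rose, and Egr1, Jun and Dusp1 lost their calls. Of 26 heat shock and unfolded protein genes Trib3, a stress-induced pseudokinase, fell and none rose. None of 79 cytosolic ribosomal protein genes was called by edgeR (median 0.46), with 0 at an unadjusted p under 0.05 and 5 called by DESeq2, and 15 were called higher without crypt 2. All 7 MHC class II genes overlapped between the groups, and none was called by edgeR or DESeq2 (0 at an unadjusted p under 0.05 in edgeR). Cd74, the invariant chain, was at 90.8, 523 and 17.8 CPM in crypt and 444 and 309 CPM in CD166, and without crypt 2 4 of the 7 were called higher.

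The other sorted population of the same region, LGR5 cells, was set against CD166 cells directly. It has 2 libraries. The 3 crypt libraries entered this fit for the filter on low counts, the scaling and the estimate of the spread. CPM were scaled anew over these 7 libraries. Xist was high in LGR5 too, at 1024 and 1326 CPM, against 196 and 735 CPM in CD166. Its part in the differences of other genes was not tested. Of 14013 tested genes, 158 (1.13%) were higher in CD166 cells and none was lower by edgeR, while DESeq2 called 454 higher and 34 lower and 1339 genes, 342 of them lower, had an unadjusted p under 0.05. Hormone and granule genes made up 19 of the 158 and enteroendocrine factors 6. Sct was at 6.09 and 5.99 CPM in LGR5 and 190 and 245 CPM in CD166, with a log2 difference of 5.17 ± 0.26 (edgeR adjusted p = 0.00113). Sst was at 16.9 and 19.2 CPM in LGR5 and 1910 and 1593 CPM in CD166, and Gip at 49.5 and 67.8 CPM in LGR5 and 3369 and 6490 CPM in CD166. For these hormones LGR5 cells lay below the crypt libraries. Other genes among the 10 with the smallest p at a mean level of at least 3 were Pam, which amidates peptide hormones, the secreted peroxidase Gpx3, the prion protein gene Prnp and the calcium channel gene Cacna1h. Cdkn1c was at 3.63 and 3.99 CPM in LGR5 and 72.1 and 40.6 CPM in CD166. Without crypt 2 the counts were 884 higher and 211 lower, and leaving out LGR5 1, LGR5 2, CD166 1 or CD166 2 left 6, 0, 10 and 14 calls (739 at an unadjusted p under 0.05 without LGR5 2).

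Stem cell and immediate early genes gave no calls by edgeR between the sorted populations. Of 28 stem cell genes 1 was above 0, at a median of -0.68 against 0.01 over all tested genes. Lgr5 was at 197 and 182 CPM in LGR5 and 82.6 and 95.0 CPM in CD166 (log2 difference -1.09 ± 0.42, edgeR adjusted p = 0.439). Cd44 was at 179 and 168 CPM in LGR5 and 181 and 151 CPM in CD166. All 20 tested Paneth genes were above 0, at a median of 2.51, and the pancreatic colipase gene Clps was the 1 called. Lyz1 was at 1848 and 2442 CPM in LGR5 and 12510 and 20090 CPM in CD166 (edgeR adjusted p = 0.152). Fosb overlapped, at 76.1 and 212 CPM in LGR5 and 50.7 and 217 CPM in CD166, as did Egr1 and Jun. The enterocyte gene Apoa4 was at 224 and 81.2 CPM in LGR5 and 77.6 and 232 CPM in CD166.

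**Figure D5:**
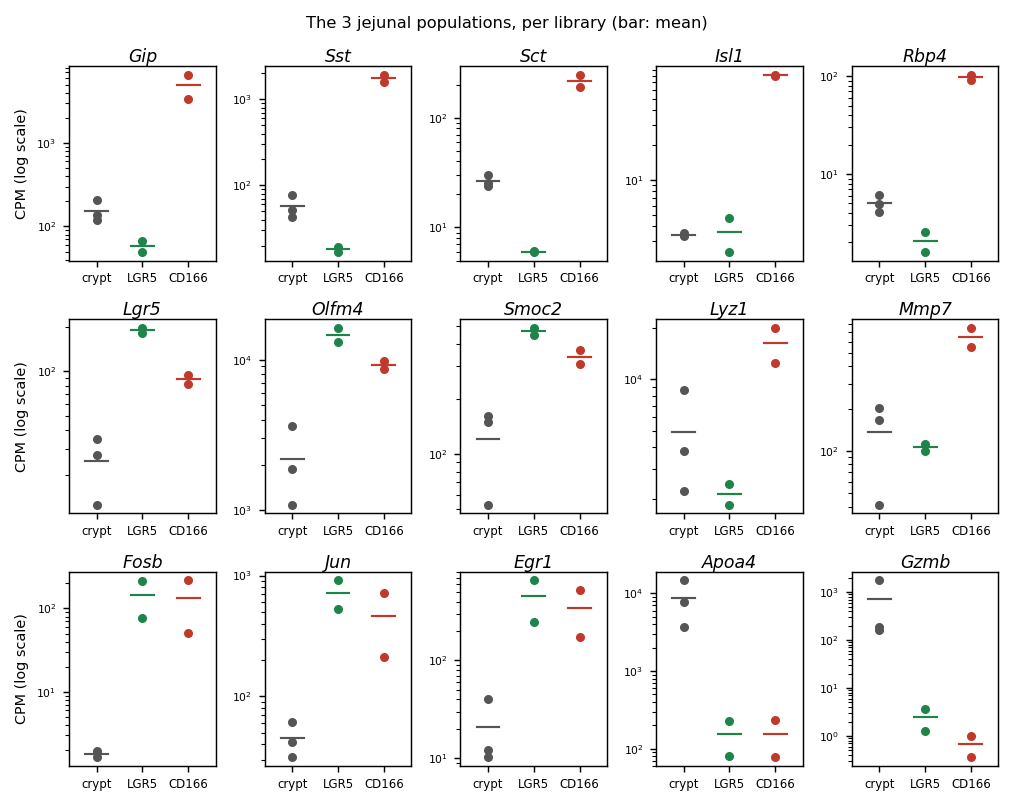
CPM (log scale, scaled over these 7 libraries) of 15 genes in jejunal crypt, LGR5 and CD166 libraries, each point a library and each bar a mean. Gip, Sst and Isl1 are high in CD166 cells alone of the 3 populations, Lgr5 is highest in LGR5 cells, and Fosb is high in both sorted populations.

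The ileum gave the same sort against crypt, with 2 CD166 and 3 crypt libraries of its own. CPM were scaled anew over the 10 libraries. No gene of 14585 tested (0.0%) passed edgeR's test of the difference between the regions' CD166 minus crypt differences. At an unadjusted p under 0.05 there were 344 of the 14585, a share below 0.05. DESeq2 called 22 and limma-voom none. The smallest p at a mean level of at least 3 belonged to Rdh9, a retinol dehydrogenase family member. It was at 40.7, 24.9 and 19.7 CPM in ileal crypt and 32.2 and 28.6 CPM in ileal CD166. In jejunum it went from 22.2, 49.6 and 27.4 CPM to 0.986 and 1.86 CPM (edgeR adjusted p = 0.627 for the difference between regions). Gip in ileum was at 10.8, 27.7 and 119 CPM in crypt and 228 and 1332 CPM in CD166, and Sst at 12.8, 27.5 and 41.5 CPM in crypt and 529 and 1015 CPM in CD166. Both hormones were thus above crypt in the ileum also. Gcg, which overlapped in jejunum, was at 55.4, 126 and 52.4 CPM in ileal crypt and 330 and 349 CPM in ileal CD166. Its difference between regions was 1.99 ± 0.86 on the log2 scale and did not pass (edgeR adjusted p = 1.00).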

How the data were processed

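RNA of jejunal CD166 (2) and crypt (3) libraries was compared; LGR5 and ileal libraries served 2 further comparisons. Per the labels' protocols, sequencing of TruSeq libraries gave single-end reads of 50 bases. Per the submitters' processing notes, mm9 and DESeq were used; aligner, counting program, strand setting and annotation: not given in the sources used here. The authors deposited expected counts without scaling (50.6% of values above 0 were whole within 0.001), and, in other files, log2 values relative to the median of a gene over the 14 libraries, used in 1 alternative.

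Expected counts were rounded. Genes were filtered with filterByExpr (minimum count 10, minimum total 15), scaled by TMM and tested with edgeR 4.0.16 (R 4.3.3; glmQLFit, robust). The SE is the size of the log2 difference divided by the square root of F. A repeated symbol was represented by its entry of highest mean level. The code of the fit was run on simulated counts with seeded changes. These counts came from a shared mean profile with a capped spread, without a library that stood apart. They therefore do not show how the test performs in these data. Alternatives were other scalings and filters, DESeq2 1.42.0, limma 3.58.1, all 14 libraries, a replicate block, and each library left out in turn; library weights, and DESeq2 or limma-voom without each library, were added after the data were seen. The comparison and the 39 gene lists were chosen with earlier results of these data known. Named genes were the 15 called with the largest difference in each direction (mean log2 CPM of at least 3, groups not overlapping), up to 8 list members by level with called ones first, a fixed set of markers, and 10 genes for each further comparison; other list members, motifs and shown sequences were chosen after values were seen. Some members of these lists are not reported here by name.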

Additional observations from a re-analysis of the deposited data

Results flagged for a closer look

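Among 163 genes named by the rule or called in a list, 2 had CD166 libraries on opposite sides of crypt in the 2 regions, without overlap. The share of all tested genes with this pattern was not counted. Both genes were called in jejunum, where no called gene overlapped. In ileum the gap was narrow: 6.00 CPM in CD166 against 6.41 CPM in crypt for Tph1, and 2.43 against 2.70 CPM for Fstl1. Tph1 was at 6.41, 15.4 and 14.2 CPM in ileal crypt and 4.68 and 6.00 CPM in ileal CD166, against 11.99, 13.99 and 15.98 CPM in jejunal crypt and 59.97 and 79.8 CPM in jejunal CD166. The ileum minus jejunum difference was -3.48 ± 0.52 on the log2 scale and did not pass edgeR's test (adjusted p = 0.627). Fstl1 was at 2.70, 2.93 and 4.44 CPM in ileal crypt and 0.540 and 2.43 CPM in ileal CD166, against 3.48, 4.07 and 6.01 CPM in jejunal crypt and 24.5 and 24.3 CPM in jejunal CD166. Its difference between regions was -3.56 ± 0.78 and did not pass either (edgeR adjusted p = 1.00).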

How the results depend on the processing

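The count of 893 called genes stayed within 1.5 times under the other scalings and filters, limma-voom (1087), the deposited log2 values (1116) and a replicate block (1051, of which 663 were among the 893). The block rests on 2 shared replicate numbers, which the labels do not tie to an animal. The count moved to 2368 with DESeq2, 2652 with all 14 libraries and 3156 with library weights. Leaving out 1 library gave 0 to 3422 calls, as listed in the report; 767 were called without crypt 1. Scaling by library totals or upper quartiles moved the median log2 difference of all genes from -0.01 to 0.15 and 0.11. Counts within a list moved more than the total: with no filter, all 7 lymphocyte and all 3 Eph calls were lost. With the block no Eph and no EGF receptor family gene was called. None of the 163 genes named or called in a list reversed while called. For CD166 against LGR5 the 158 calls became 488 with DESeq2, 282 with the deposited log2 values and 0 to 1095 without 1 library, while a block gave 129. For the difference between regions the 0 calls became 22 with DESeq2, 2 with the deposited log2 values and 0 to 4 without 1 library. Crypt 2 had the lowest depth of the 5 libraries, and genes at a few counts per library carry wide errors.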
